A study of Homo sapiens with 15 samples.

Results

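The 10 genes described here lie close together on chromosome band 11q13: in map order from the centromere, TPCN2, MYEOV, CCND1, LTO1 (formerly ORAOV1), FGF19, ANO1, FADD, PPFIA1, CTTN and SHANK2. They were selected on their place in the map around ANO1, and ANO1 itself was chosen for its fall in the comparison of these arrays, so its values are a description without a test. The 10 genes are among 19483 with a RefSeq-named probe on the array, and 8 of the 10 were well above background on at least 50% of the arrays of either group. The comparison asked whether the fall of ANO1 was shared by its neighbours.

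The cells were PE/CA-PJ41, an established line from a human oral squamous cell carcinoma. Those labelled NCE, for non-cytoglobin expressing, carried an empty transfection vector according to the labels, while the study's text in places calls them un-transfected. The cells labelled CYGB+ carried pCMV6-Neo, whose viral CMV promoter drives human cytoglobin cDNA. To obtain lasting lines, single colonies were isolated in G418 with cloning rings, and the study names 1 clone for the CYGB+ arrays. An effect of cytoglobin and a difference between clones therefore cannot be told apart. Both groups were kept for a day in supplemented medium before RNA extraction, which was done on 3 occasions, so that p-values measure the spread between extractions of these lines. The NCE group has 9 arrays, from 3 biological replicates with 3 array repeats each. The CYGB+ group has 6 arrays, from 3 biological replicates with 2 array repeats each. The labels call the array repeats cell replicates or duplicates, and do not say whether they share 1 RNA. The labels give Cy3, read in the green channel, for every sample, whereas the study's methods name cyanine 5 for the control RNA. All levels below are therefore those of the green channel as labelled, in log2 after background correction and quantile normalisation, with array repeats averaged. Between 48.9% and 57.3% of the probes were well above background on an array.

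Several features of the arrays came before any comparison. The probe for CYGB, the transfected gene, did not separate the groups. Its levels were 11.87, 12.16 and 11.94 in the NCE replicates and 11.36, 12.42 and 11.96 in the replicates labelled CYGB+. The place of this probe relative to the transfected cDNA is not given in the sources used here, so it is not known whether it can check the labels, and the group names below are those of the labels. One array stood apart, the first repeat of CYGB+ replicate 1. Its median correlation with the other arrays was 0.931, against 0.968 to 0.985 for the remaining 14. The slides also differed: slide 1 held 8 NCE arrays, and slide 2 held 1 NCE array, the third repeat of replicate 1, with all 6 CYGB+ arrays. Markers of squamous keratinocytes, or of epithelial cells more widely, were present: KRT5, KRT14, KRT6A, TP63, EPCAM, CDH1 and DSG3 were all well above background on every array. PTPRC and CD3E of leukocytes, PECAM1 and VWF of endothelium, and DCN and PDGFRB of fibroblasts did not reach the level needed for testing. CDH5 of endothelium and CD68 of leukocytes did and were not called (0.05 and 0.21). COL1A2, a fibroblast collagen gene, was measured on every array and was lower in CYGB+ (log2 difference -1.33), while COL1A1 was not called (0.10). KRT6A and EPCAM were also lower (-0.51 and -0.50), but within the slide that held both groups these differences were 0.01 and -0.19, while that of COL1A2 was -1.55. Over all ways of processing COL1A2 ranged from -2.59 to -1.27. KRT14 was not called (0.72), but was in 4 of 20 other ways of processing, among them the replicate number as a block (limma adjusted p = 0.0221). The part of these marker changes in the results below was not tested.

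Band 11q13 is gained in many squamous carcinomas of the head and neck, and the gained segment commonly carries CCND1, ANO1, FADD and CTTN together. Genes on such a segment share DNA copies, while each keeps its own promoter. ANO1, also called TMEM16A, encodes a chloride channel of the cell membrane that opens when calcium rises. FADD is the adapter that joins death receptors to caspase-8, LTO1 helps to deliver iron-sulfur clusters to cytosolic proteins, and CCND1 encodes cyclin D1, which drives cells out of G1 with CDK4 and CDK6.

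Because ANO1, FADD and LTO1 were the lower genes, the 250 bases before their listed starts are shown, in lower case and 5′ to 3′ on the gene's strand, from the RefSeq promoter table (GRCh38.p14). Of the 10 genes, 5 have an entry. Capitals mark the GC box GGGCGG on either strand. The start listed for ANO1 may not be that of the transcript its probe reads.
ANO1, chr11:69985657-69985906, plus strand: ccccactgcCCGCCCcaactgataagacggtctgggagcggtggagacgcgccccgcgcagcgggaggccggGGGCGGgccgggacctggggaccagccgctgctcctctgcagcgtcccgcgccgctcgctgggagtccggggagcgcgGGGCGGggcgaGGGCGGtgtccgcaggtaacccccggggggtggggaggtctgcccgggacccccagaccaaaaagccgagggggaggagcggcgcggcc
FADD, chr11:70203046-70203295, plus strand: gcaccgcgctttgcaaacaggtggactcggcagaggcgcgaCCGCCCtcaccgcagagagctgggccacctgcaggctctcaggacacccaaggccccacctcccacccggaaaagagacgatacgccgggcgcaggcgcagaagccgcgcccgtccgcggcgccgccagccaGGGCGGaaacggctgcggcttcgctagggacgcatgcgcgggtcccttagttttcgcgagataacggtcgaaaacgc
LTO1, chr11:69675354-69675603, minus strand: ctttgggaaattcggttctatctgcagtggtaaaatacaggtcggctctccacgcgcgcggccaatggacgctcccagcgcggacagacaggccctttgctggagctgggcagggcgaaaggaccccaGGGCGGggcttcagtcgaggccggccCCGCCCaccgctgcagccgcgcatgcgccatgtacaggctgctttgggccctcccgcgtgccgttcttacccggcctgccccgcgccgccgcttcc

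The GC box occurred 4 times before ANO1, 2 times before FADD and 2 times before LTO1, on either strand. PPFIA1, whose expression was not called, had 5. At least 1 GC box was present in 42.6% of 35116 listed promoters of the same length. The TATA box TATAAA and the E box CACGTG, searched on both strands, were found before none of the 5 genes, against 10.7% and 6.34% of all promoters. The 3 sequences held 30, 32 and 26 CG pairs in the order shown, against a median of 11 over all promoters. The uncalled PPFIA1 and TPCN2 had 33 and 17. These matches describe the letters only.

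ANO1 stood at 10.05, 10.42 and 10.52 in the 3 NCE replicates and at 6.56, 6.79 and 6.97 in the 3 CYGB+ replicates. The lowest NCE replicate lay far above the highest CYGB+ replicate. The means were 10.33 ± 0.25 (SD, n = 3) and 6.77 ± 0.21 (SD, n = 3), a log2 difference of -3.56, or 11.8-fold. Before normalisation the median pixel brightness of the ANO1 spots ran from 886.5 to 1910 on the NCE arrays, with a median of 1234, and from 42.3 to 109.5 on the CYGB+ arrays, with a median of 66. The probe was nonetheless well above background on all 15 arrays, so ANO1 was measured in both groups. The offset of 50 added to each intensity compresses so low a level: without it the difference was -4.43, or 21.5-fold, and with the scanner's processed signal it was -4.81, or 28.1-fold. This was the lowest difference of the 22832 tested probes. In bulk RNA of this kind, fewer cells with the transcript and less transcript per cell cannot be told apart.

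**Figure D1:**
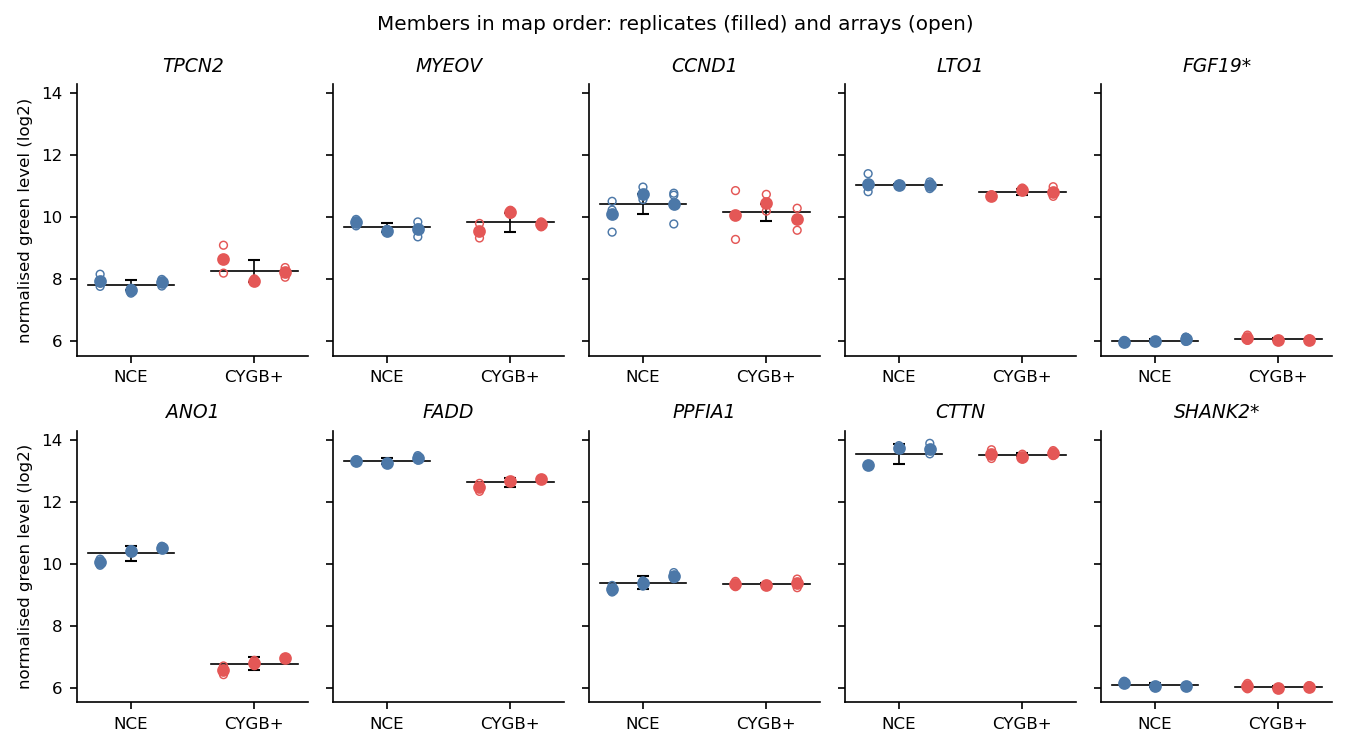
Normalised green level (log2) of the 10 genes in map order, in the 3 NCE (blue) and 3 CYGB+ (red) biological replicates (filled; open points are single arrays, lines with bars the mean ± SD, asterisks genes too dim to test). The mean of ANO1 moves from 10.33 to 6.77 and that of FADD from 13.32 to 12.63, and no other group mean moves by more than 0.45.

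Of the 9 neighbours, 7 could be tested, and 2 of these were called lower in CYGB+ and 0 higher. The methods' t-test called the same number without adjustment and 0 after Benjamini-Hochberg adjustment. Calls are at a Benjamini-Hochberg adjusted p under 0.05 in limma's moderated test, and over all 22832 tested probes 7.46% were lower, 7.27% higher and 14.7% called in either direction. Members and the gene lists below are read from 1 probe a gene. Over the 13038 tested genes read in that way, 9.17% were lower, 8.25% higher and 17.4% called. The 2 neighbours called lower were FADD and LTO1, the nearest tested members on either side of ANO1. Their replicates did not overlap between the groups, nor did those of TPCN2, which makes 3 of 7 genes. The share was 33.4% of all tested probes and 36.6% of the tested genes. With 7 genes, such counts do not set the neighbours apart from the rest of the array.

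FADD stood at 13.31, 13.25 and 13.42 in the NCE replicates and at 12.47, 12.69 and 12.73 in the CYGB+ replicates. Every NCE replicate was above every CYGB+ replicate. The log2 difference was -0.70 ± 0.09 (SE), with a 95% confidence interval from -0.91 to -0.48 and a limma adjusted p of 0.00807. This is a 1.62-fold fall, beside the 11.8-fold of ANO1. A larger group of probes fell as far: 652 tested probes had a difference at or below that of FADD. Without the array that stood apart the difference was -0.65, with a limma adjusted p of 0.00215.

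LTO1, next to ANO1 on the centromeric side among the members that could be tested, stood at 11.07, 11.04 and 11.05 in NCE and at 10.70, 10.89 and 10.83 in CYGB+. The groups were close but did not overlap. The log2 difference was -0.25 ± 0.06 (SE), from -0.39 to -0.11 at 95% confidence, with a limma adjusted p of 0.0425. That call was marginal, since with the replicate number as a block the limma adjusted p was 0.0708. Without the array that stood apart the difference was -0.24 and the limma adjusted p 0.0252.

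The genes that drive the cell cycle and cell movement were not called. CCND1 stood at 10.09, 10.76 and 10.43 in NCE and at 10.07, 10.47 and 9.94 in CYGB+. Its groups overlapped, and the interval of the difference, from -0.78 to 0.25, holds changes in both directions. CTTN, which encodes the actin-binding protein cortactin, gave 13.18, 13.75 and 13.71 in NCE and 13.54, 13.46 and 13.58 in CYGB+. The CTTN difference was -0.02, from -0.41 to 0.37, and that of its dimmer probe was -0.23. PPFIA1, which encodes liprin alpha-1 of focal adhesions, lies just beyond FADD. It gave 9.19, 9.38 and 9.60 in NCE and 9.35, 9.31 and 9.37 in CYGB+, a difference of -0.05 with an interval from -0.30 to 0.20. Its dimmer probe differed by -0.20, likewise not called. An uncalled gene may still differ within its interval. For the dimmer probes the intervals ran from -0.71 to 0.31 in PPFIA1 and from -0.64 to 0.18 in CTTN. The intervals of CCND1 and of the dimmer PPFIA1 probe reach the fall of FADD. None of these intervals reaches that of ANO1.

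At the centromeric end, TPCN2, a cation channel of endosomes and lysosomes, gave 7.94, 7.64 and 7.90 in NCE and 8.65, 7.96 and 8.22 in CYGB+. All CYGB+ replicates of TPCN2 were higher, yet the difference of 0.45 ± 0.19 (SE) was not called (limma adjusted p = 0.166). It was 0.26 without CYGB+ replicate 1 and 0.11 within slide 2, where the NCE array of TPCN2 (8.16) lay above CYGB+ replicate 2. MYEOV, named for its overexpression in myeloma, gave 9.84, 9.57 and 9.62 in NCE and 9.57, 10.16 and 9.77 in CYGB+. The interval of the MYEOV difference of 0.15, from -0.25 to 0.56, holds 0. FGF19, a hormone of the fibroblast growth factor family that acts on liver, was well above background on 1 of 9 NCE arrays and 0 of 6 CYGB+ arrays. SHANK2, a scaffold protein of synapses and epithelial membranes, was well above background on 0 of 15 arrays with either of its 2 probes. Neither gene had a measured level to compare.

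**Figure D2:**
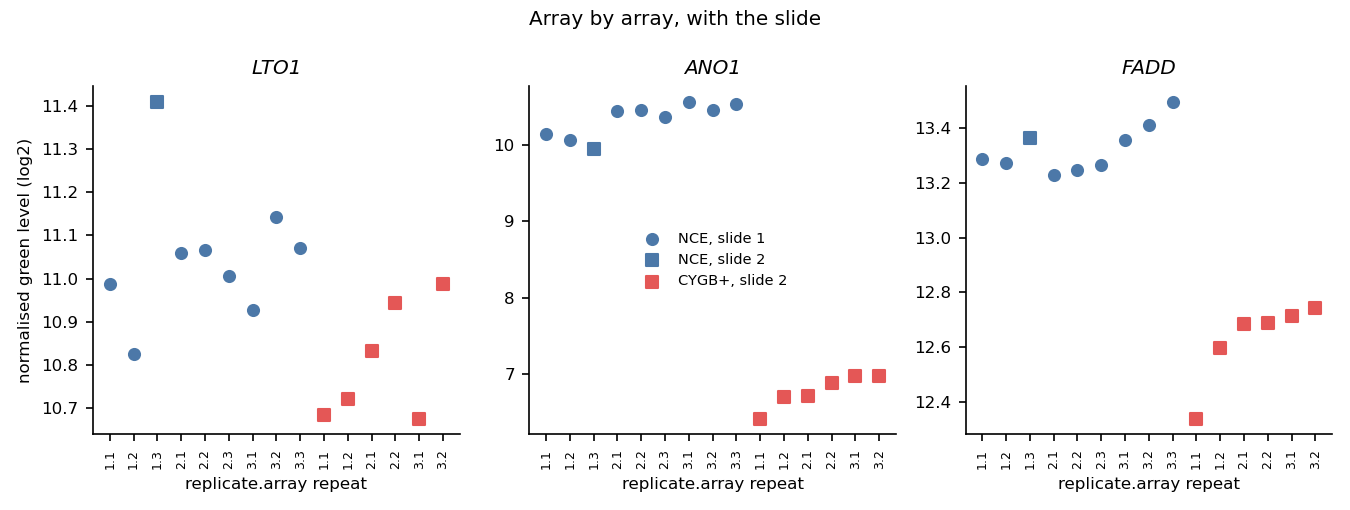
Normalised green level (log2) of LTO1, ANO1 and FADD on each of the 15 arrays, ordered by replicate and array repeat (circles slide 1, squares slide 2, blue NCE, red CYGB+). The single NCE array of slide 2 lies among the other NCE arrays for FADD, just below them for ANO1 and above them for LTO1.

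Slide 2 held both groups and gave a comparison free of the slide. Its single NCE array read 9.95 for ANO1, against 6.56, 6.79 and 6.97 in CYGB+, a difference of -3.18. For FADD it read 13.36, against 12.47, 12.69 and 12.73, a difference of -0.73. Both differences were close to those over all arrays. For LTO1 the array read 11.41, whereas the repeats of the same replicate on slide 1 averaged 10.91. That gap of 0.50 within 1 replicate was larger than the difference of LTO1 between groups. Since the labels do not say whether the repeats share 1 RNA, slide and sample cannot be told apart in that gap. CCND1 differed even more between slides in that replicate, from 10.37 to 9.52, and within slide 2 its difference turned to 0.64. Without the array that stood apart the CCND1 difference was -0.00. Other uncalled members also moved within slide 2, CTTN to 0.37 and MYEOV to -0.10. With 1 NCE array, which was assumed to vary like the CYGB+ replicates, limma called 0 probes within slide 2, although 3736 had an unadjusted p under 0.05. The adjusted p was 0.170 for FADD and 0.166 for LTO1. A fit with slide as a block gave -0.75 for FADD (limma adjusted p = 0.00803) and -0.63 for LTO1 (limma adjusted p = 0.0234). Slide 1 holds no CYGB+ array, so every value with slide as a block, here and for the genes that follow, rests mainly on the same single NCE array. It is no second check, and for LTO1 that array was the one that read high.

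**Figure D3:**
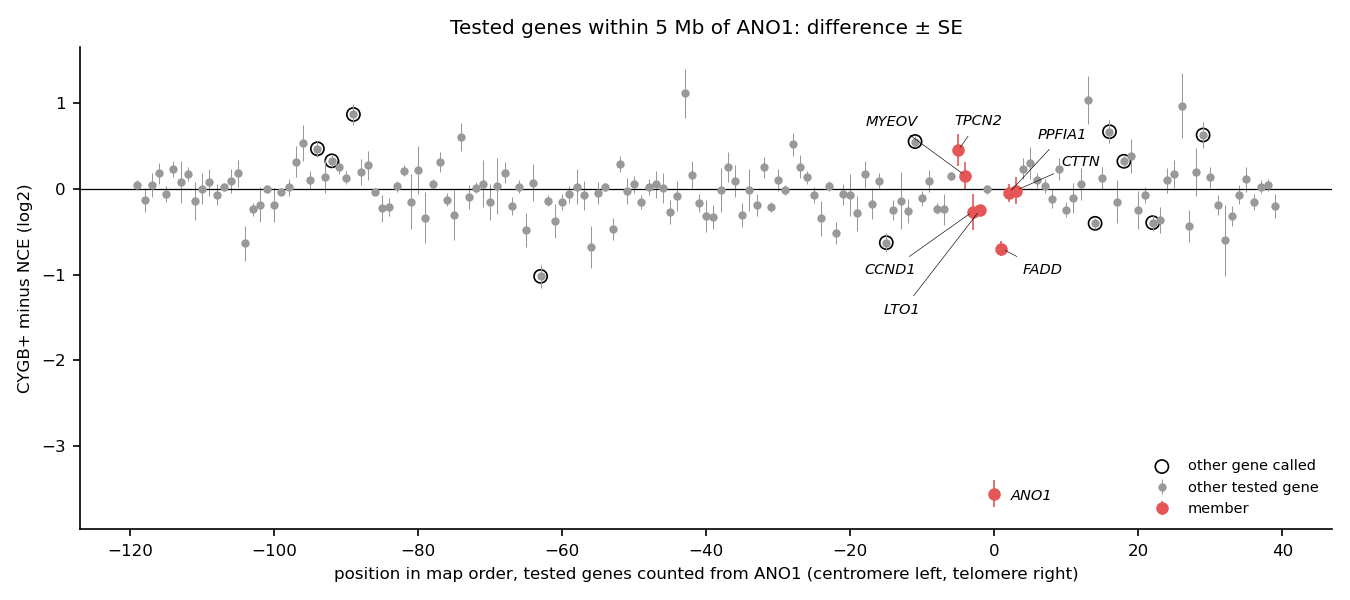
Difference in log2 level, CYGB+ minus NCE, of the tested genes within 5 Mb of ANO1 in map order, counted in genes from ANO1 (bars SE, members red, black rings other genes called at an adjusted p under 0.05). ANO1 lies alone at -3.56, and the genes that are not members lie between -1.02 and 1.12.

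Beyond the 10 genes, 183 genes within 5 Mb of ANO1 had a probe and 151 could be tested. Among these, 4 were lower and 7 higher in CYGB+, which is 2.65% and 4.64%. Over all tested probes the shares were 7.46% and 7.27%, and over the 13038 tested genes 9.17% and 8.25%. The median difference of the 151 genes was 0.01, against 0.00 over all tested probes, and 1 of the 151 fell more than 2-fold. With the replicate number as a block, 8 were lower. The region as a whole did not follow ANO1 down.

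The lower genes were B4GAT1 (-1.02), a glycosyltransferase that modifies dystroglycan, KMT5B (-0.63), a methyltransferase of histone H4, FOLR1 (-0.40), a folate receptor, and P2RY2 (-0.39), a receptor for extracellular nucleotides. The higher genes with the largest differences were RNASEH2C (0.87), a subunit of ribonuclease H2, CLPB (0.67), a mitochondrial chaperone, COA4 (0.63), an assembly factor of cytochrome c oxidase, and GAL (0.55), which encodes the neuropeptide galanin. MAP3K11 (0.47), a kinase of stress signalling, and SIPA1 (0.33), which switches off the GTPase RAP1, were also higher. These are the 10 called genes of largest absolute difference in the region. With the replicate number as a block, COA4 and SIPA1 were not called (limma adjusted p = 0.0824 and 0.0511). Over the other ways of processing, COA4 and SIPA1 were each called in 5 of 20, MAP3K11 in 6 and P2RY2 in 7. KMT5B was called in 10 of 20, CLPB in 12, RNASEH2C in 16, B4GAT1 in 16 of 19, FOLR1 in 14 of 18 and GAL in 16 of 18. With slide as a block, which leans on 1 NCE array, GAL (0.61), FOLR1 (-0.62) and P2RY2 (-0.58) were called and the other 7 were not. Over all ways of processing GAL reached 1.47 and FOLR1 -1.34. With that block the differences stayed near those above for B4GAT1 (-0.96), CLPB (0.60), COA4 (0.58), KMT5B (-0.55) and MAP3K11 (0.42), and were smaller for RNASEH2C (0.51) and SIPA1 (0.24).

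Among the immediate flanks, 13 of 17 listed genes could be tested, with 0 lower and 1 (7.69%), GAL, higher, against 7.46% and 7.27% of all tested probes. Between LTO1 and ANO1, FGF4 was not well above background on any array. FGF3, which directly precedes ANO1 among the tested genes, gave a difference of -0.01 (limma adjusted p = 0.954). The mean level of FGF3 was low, however, at 6.37 in NCE and 6.36 in CYGB+. That is close to FGF4, at 5.97 and 6.02. With so little room for a fall, FGF3 cannot show whether the fall of ANO1 was shared there. MRPL21, a subunit of the mitochondrial ribosome, differed by -0.23 and MRGPRF, an orphan receptor, by 0.15, with unadjusted p of 0.0114 and 0.0193 that did not hold after adjustment (limma adjusted p = 0.0643 and 0.0877). The dimmer probe of MRGPRF gave -0.05. DHCR7, the last enzyme of cholesterol synthesis, and NADSYN1, an enzyme that makes NAD, follow the members on the telomeric side and gave 0.23 and 0.30, neither called.

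**Figure D4:**
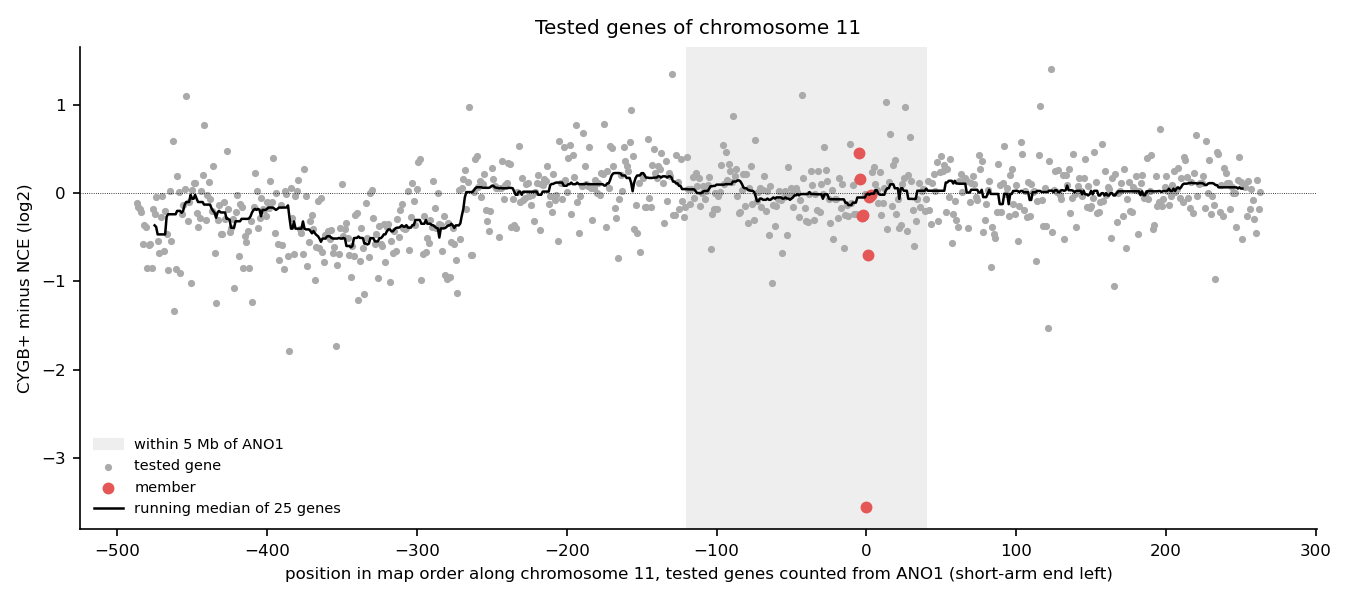
Difference in log2 level, CYGB+ minus NCE, of the tested genes of chromosome 11 in map order, counted from ANO1, with members in red, the 5 Mb region shaded and a running median over 25 genes. The running median stays near 0 through the shaded region and lies below 0 toward the short-arm end on the left.

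Along the rest of chromosome 11, most lower genes were on the short-arm side, away from the 11q13 region. Of the 224 tested genes between the region and the end of the long arm, 14 were lower and 19 higher, with a median of 0.03. The short-arm side here means all tested genes before the region in map order, so it also takes in the near part of the long arm. Of its 368 tested genes, 86 were lower and 17 higher, which is 23.4% and 4.62%, with a median of -0.17. In consecutive runs of 50 genes along that side, the lowest median was -0.51, between ZNF143 and SLC5A12, where 24 genes were lower and 0 higher. In the run that borders the 11q13 region, from UBXN1 to PPP2R5B, 3 were lower and 9 higher, with a median of 0.17. The run before it, from CTNND1 to UQCC3, had 2 lower and 5 higher, with a median of 0.11. The run from FREY1 to SELENOH had 5 lower and 1 higher, with a median of 0.06. The fall was thus not spread over the whole of that side. Within slide 2 the short-arm side had a median of -0.15, against 0.01 in the region around ANO1. These divisions of the chromosome were chosen after the values were seen.

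Of 20 listed paralogs of the members, elsewhere in the genome, 17 had a probe and 8 could be tested. Of these 2 (25%) were lower and 0 higher, against 7.46% and 7.27% of all tested probes. ANO8, of the same family as ANO1, was lower (-0.33, limma adjusted p = 0.0364), but it was called in 4 of 18 other ways of processing, with differences from -1.12 to -0.28. HCLS1, the relative of cortactin typical of blood cells, fell from 9.72, 9.66 and 10.29 in NCE to 8.25, 7.72 and 8.42 in CYGB+ (-1.76, limma adjusted p = 0.0109). ANO6, ANO9 and ANO10 were measured and not called, at -0.20, -0.24 and -0.20. Of the other D-type cyclins, CCND2 (-0.46) and CCND3 (0.23) were not called, although CCND3 was without the array that stood apart (0.47, limma adjusted p = 0.00381). ANO3, ANO4, ANO5 and ANO7 were too dim to test. TPCN1, the relative of TPCN2, was not called (0.47, limma adjusted p = 0.114), but was in 4 of 20 other ways of processing. These include the replicate number as a block (limma adjusted p = 0.0234) and slide as a block (0.85, limma adjusted p = 0.0310), but not slide 2 alone (limma adjusted p = 0.212). Its dimmer probe gave 0.17 and was not called. With slide as a block HCLS1 was called (-1.90). ANO8 was not (limma adjusted p = 0.180), although its difference was larger there (-0.79).

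Of the 14 listed partners, 13 could be tested, with 3 (23.1%) lower and 0 higher, against 7.46% and 7.27% of all tested probes. TNFRSF10B, a receptor for the death ligand TRAIL that signals through FADD, differed by -0.67 (limma adjusted p = 0.0261), while FAS (0.26) and CASP8 (-0.17) were not called. The other probes of FAS had the opposite sign (-0.24 and -0.14) and were not called either. EGFR, the epidermal growth factor receptor, which is known to act with ANO1, differed by -0.79 (limma adjusted p = 0.0152) with its brightest probe. Both of its other probes differed little, at 0.14 and -0.04, and neither was called. These probes are named for other transcripts of EGFR and were dimmer, at 7.47 and 6.86 in NCE against 10.23 for the brightest. They may therefore not read the same RNA. ACTR3, a subunit of the actin-branching complex that cortactin binds, differed by -0.35 at the threshold (limma adjusted p = 0.0499), and by a limma adjusted p of 0.0652 with the replicate number as a block. CDK4, CDK6, RB1 and E2F1 of the cyclin D1 pathway were not called, at 0.33, -0.17, -0.14 and -0.39. CDK4 was called with the replicate number as a block (limma adjusted p = 0.0419), and in 2 of 20 other ways of processing in all. The CDK4 difference turned to -0.08 within slide 2 and to -0.04 with slide as a block. Without the array that stood apart, CDK6 (-0.33) and E2F1 (-0.40) were called (limma adjusted p = 0.0186 and 0.0292). With slide as a block, EGFR was called (-0.71) and TNFRSF10B (-0.40) and ACTR3 (-0.21) were not.

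The 5 tested probes whose 6 replicate values followed ANO1 most closely were those of IFIT2, METTL3, SULF2, NGDN and DCLRE1B, with Pearson correlations of 0.999, 0.998, 0.998, 0.998 and 0.997. None of them is on chromosome 11. Their differences were smaller than that of ANO1, from -1.08 for NGDN to -0.43 for DCLRE1B. Among the neighbours the correlation was 0.98 for FADD and 0.92 for LTO1. For the other tested neighbours it was 0.50 in CCND1, 0.28 in PPFIA1, 0.13 in CTTN, -0.38 in MYEOV and -0.75 in TPCN2. The 6 points form a high and a low group of 3 each, so these values describe the split between the groups and little within them.

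**Figure D5:**
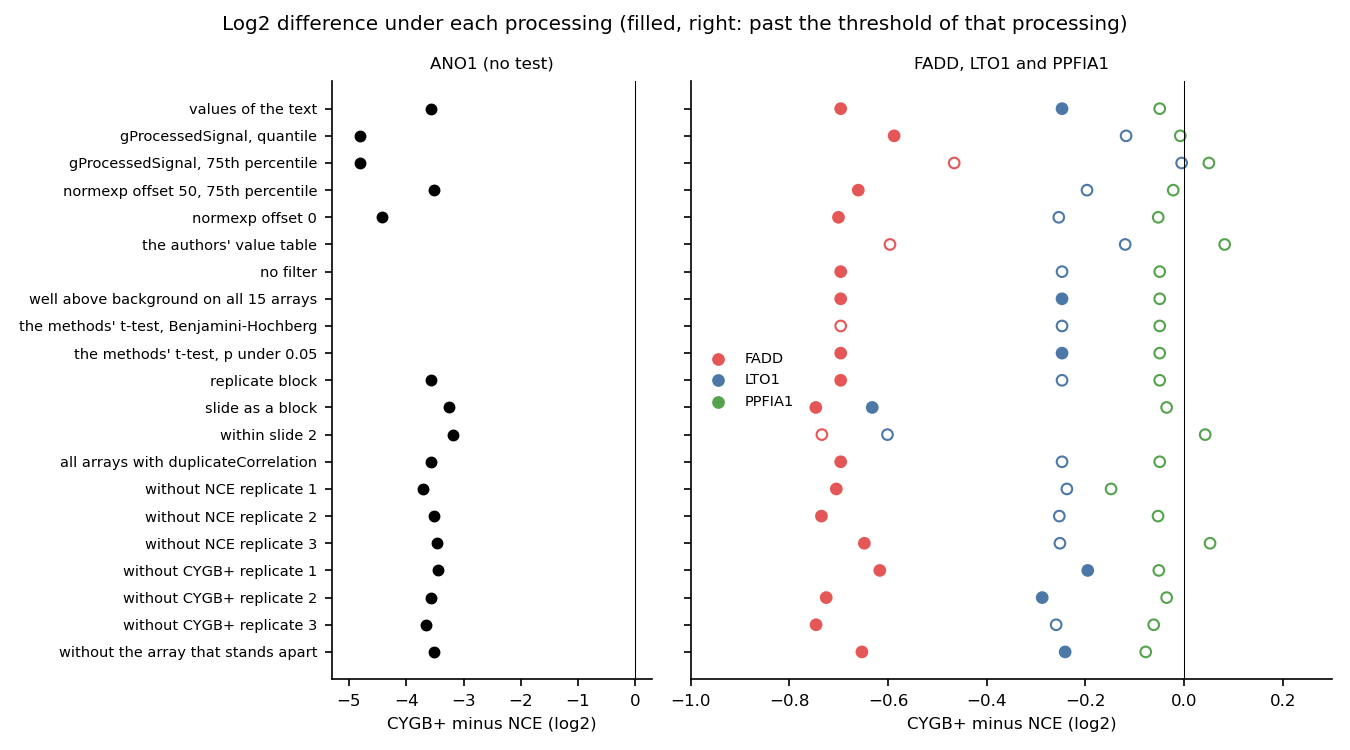
Difference in log2 level, CYGB+ minus NCE, of ANO1 (left, no test) and of FADD, LTO1 and PPFIA1 (right) under each way of processing (filled at the right, past its threshold). FADD lies between -0.75 and -0.47 and LTO1 between -0.63 and -0.00.

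FADD kept its negative sign in 20 of 20 other ways of processing and was called in 16, and LTO1 was called in 6. FADD was not called with the scanner's processed signal scaled to the 75th percentile (-0.47, limma adjusted p = 0.212) or with the authors' own values (-0.60, limma adjusted p = 0.0534), nor within slide 2 or with the methods' t-test after adjustment. Its adjusted p over the alternatives fitted with limma ran from 7.33e-06 to 0.212.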

How the data were processed

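Members and gene lists were chosen with earlier results of these data known. Green and red spot intensity was deposited for 15 arrays of an Agilent 8x60K human design, read by the authors with Feature Extraction 10.7.3.1. The authors' value table, deposited for the same arrays, holds natural log values of 15040 probes, 15031 of them matched by name. Its scale (slope on log2 green signal from 0.545 to 0.727 over the arrays) and direction were found by comparison with the scanner values, and the rule that chose its probes stays unknown. Its column medians were -0.161, -0.0150 and 0.110 for array repeats 1 to 3 of NCE replicate 1, -0.0405, 0.0386 and 0.0863 for NCE replicate 2, and -0.0486, 0.182 and -0.0223 for NCE replicate 3. For array repeats 1 and 2 they were 0.143 and 0.00120 in CYGB+ replicate 1, -0.00973 and -0.0483 in replicate 2, and -0.0219 and 0.161 in replicate 3. The RNA in the red channel is not in the labels, so that channel entered no comparison.

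Spot and background medians were used, because the planned mean signal is not a column of these files. They were corrected with normexp (offset 50), put in log2 and quantile-normalised, without control and outlier spots. Spots of a probe, then array repeats, were averaged into 3 replicates a group, and compared with limma 3.58.1 in R 4.3.3. A probe was tested where it was well above background on at least 50% of the arrays of either group. Accessions of 25422 of 42405 probes named 1 gene in RefSeq (GRCh38.p14), used for names and map order only, and a gene was read from its brightest probe. The fit was tested on simulated data. The number of arrays limits the precision.

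Named were the members, lists of flanking genes, paralogs and partners, the 10 called genes of largest difference within 5 Mb, and the 5 probes most correlated with ANO1. Replicate numbers come from the labels. Deviations from the group mean correlated at 0.206, 0.228 and 0.299 between same-numbered NCE and CYGB+ replicates, all over 0.1, which was the rule for taking the numbers to pair the samples. Differently numbered replicates correlated between -0.493 and 0.286, and 2 such pairs were above 0.206, so the pairing is weakly marked in the values. The calls in the text nonetheless come from the fit without pairing, and the replicate block, which takes the pairs into account, is an alternative. With that block 1 neighbour, FADD, and 8 genes within 5 Mb were called lower. Alternatives changed the background correction, scaling, filter, test, replicate block, slide and replicates used. Leaving out the array that stood apart was added after seeing the data.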

Additional observations from a re-analysis of the deposited data

Results flagged for a closer look

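The red channel, which no comparison used, carried a signal for ANO1 well above background on 15 of 15 arrays, and its normalised log2 level spanned 4.70 between arrays, from 7.53 to 12.23. It was 8.02, 8.16 and 7.87 on the first array repeats of NCE replicates 1, 2 and 3, and between 10.97 and 12.23 on the other 6 NCE arrays. On the 6 CYGB+ arrays it ran from 7.53 to 8.84. What RNA this channel holds is not in the labels, and no group was assigned from it.

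The first array repeat of CYGB+ replicate 1, which also stood apart over all probes, lay far from the other 5 CYGB+ arrays for FADD, at 12.34 against a next lowest of 12.60, and for FGF19, at 6.19 against a next highest of 6.07. FGF19 was not well above background there. Chance alone gives such a gap in about 1 group in 20, and 20 groups of arrays were looked at.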

How the results depend on the processing

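With 3 replicates a group, counts of calls moved strongly with the processing. FADD and LTO1 were negative in 20 of 20 alternatives, and none of the other 5 tested neighbours was called in any. MYEOV, CCND1, PPFIA1 and CTTN changed sign in 3, 2, 4 and 8 of theirs without a call. No member was called higher in any alternative. Except where given below, the cause of a shift was not tested.

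The count of called probes, 3363, became 2034 with the scanner's processed signal under quantile normalisation and 1063 scaled to its 75th percentile. It became 1661 with normexp scaled to the 75th percentile, 1927 with no offset, 1444 of 15031 in the authors' table and 2055 of 42405 with no filter. The methods' t-test gave 5505 unadjusted and 589 after Benjamini-Hochberg. Slide as a block gave 769, slide 2 alone 0, and leaving out the array that stood apart 5184. Without 1 replicate it ran from 1234 to 3514, with 2214 without NCE replicate 1, 1262 without NCE replicate 2 and 1234 without NCE replicate 3.

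The 2 neighbours called lower became 1, FADD, with quantile-normalised processed signal, with normexp at the 75th percentile, with no offset, with no filter, with the replicate block and with duplicateCorrelation on all arrays, and 1 or 2 without 1 replicate. They became 0 with processed signal at the 75th percentile, in the authors' table, with the methods' t-test after Benjamini-Hochberg and within slide 2. LTO1 lost its call without any of NCE replicates 1, 2 and 3 or CYGB+ replicate 3, with limma adjusted p up to 0.122.

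Of the genes within 5 Mb, the 4 lower became 2 with normexp at the 75th percentile and with slide as a block, 0 in the authors' table, with the adjusted methods' t-test and within slide 2, 9 with the unadjusted t-test and with duplicateCorrelation, 8 with the replicate block, and 1 to 8 without 1 replicate: 1 without NCE replicate 3 and 8 without CYGB+ replicate 2. The 7 higher became 2 with quantile-normalised processed signal, with no filter and with slide as a block, 1 with processed signal at the 75th percentile and with the adjusted t-test, 14 unadjusted, 0 within slide 2, 13 with duplicateCorrelation, and 2 to 7 without 1 replicate, the 2 without NCE replicate 2 or 3.

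The ANO1 difference of -3.56 became -4.81 with processed signal under either scaling, -4.43 with no offset, -3.26 with slide as a block and -3.18 within slide 2, and ran from -3.70 to -3.45 without 1 replicate. ANO1 is not in the authors' table. The replicate block ended the calls of LTO1 and ACTR3 and of COA4 and SIPA1 and made those of TPCN1, CDK4 and KRT14. It changed no other call among the members, the listed genes and the 10 called genes within 5 Mb. The low brightness of ANO1 in CYGB+ limits how exactly its fold is known.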

Other observations

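Calls were unevenly spread over the chromosomes, a pattern looked at after the values were seen. Over the 22 autosomes, the share of tested genes lower in CYGB+ ran from 2.75% to 56.5%. On chromosome 21, 78 of 138 tested genes were lower and 3 higher, with a median log2 difference of -0.55. On chromosome 20, 147 of 368 were lower and 3 higher, with a median of -0.38, and on chromosome 14, 127 of 434 were lower and 21 higher, with a median of -0.27. Chromosome 5 went the other way, with 20 of 570 lower and 180 higher and a median of 0.25. Chromosome 18 had 5 of 182 lower and 32 higher. The genes within 5 Mb of ANO1 had neither shift. Of the 5 probes that followed ANO1 most closely, those of METTL3 and NGDN are on chromosome 14 and that of SULF2 is on chromosome 20. These shares are descriptions, and their source was not tested.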
